A study of Mus musculus with 17 samples.

Results

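The axon guidance ligands and receptors of the mouse cortex comprised 67 genes, chosen by symbol alone from the 55453 gene symbols of the table: 20 semaphorins, 8 ephrins, 3 Slits and 2 netrins as ligands, and 9 plexins, 2 neuropilins, 14 Eph receptors, 4 Robos and 5 genes of the Dcc and Unc5 group as receptors. RNA from bulk cortex of 17 male C57BL/6J mice was measured in 6 groups. Hemizygous Hnrnph2 knockout (KO) mice, hemizygous R206W mice and the wild-type littermates of each line were 8 weeks old, with 3 mice in each of these 4 groups. Hemizygous P209L mice (3 mice) and their wild-type littermates (2 mice) were 3 weeks old. Hnrnph2 is an X-linked gene for an RNA-binding protein, R206W and P209L are substitutions in its nuclear localization signal, and the KO allele is an insertion or deletion that introduces a premature stop codon. All 3 lines carried their allele in every cell, and each line was set against its own littermates. The P209L line was the only line sampled at 3 weeks, so that age and line cannot be told apart in any comparison of ages. Between mutants of the 2 ages the allele differs as well, so that age, line and allele cannot be told apart there.

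Axon guidance molecules are secreted or membrane-bound cues and their receptors, which attract or repel the growth cone of a growing axon. Semaphorins signal through plexins, with neuropilins as co-receptors for most secreted class 3 semaphorins. Ephrins bind Eph receptor tyrosine kinases and can signal in both directions, Slits act through Robo receptors, and netrin-1 attracts axons through Dcc and repels them through Unc5 receptors. Many of these genes stay on in the postnatal cortex, where they act on synapses, dendritic spines, myelinating cells and blood vessels.

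Values were TPM, the number of transcripts of a gene in 1000000 transcripts after correction for transcript length, so levels may be compared between genes of a mouse. Each value is a share of the total of its mouse, so a comparison between mice also depends on the other transcripts. The depth behind each mouse is unknown. Of the 67 genes, 64 had a mean of at least 1 TPM and were among the 16265 genes tested. The 3 left out were Efna4, Epha1 and Epha2, with means of 0.234, 0.0553 and 0.593 TPM. Differences are given on the log2(TPM + 1) scale with their standard error (SE), from limma fitted to the group means of all 17 mice, and the Benjamini-Hochberg adjustment covered every tested gene.

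The target gene was measured first as a check of the labels. Hnrnph2 was at 23.5, 21.3 and 24.4 TPM in the 3 KO mice and at 80.5, 145 and 140 TPM in their controls. It was at 142, 135 and 160 TPM in R206W mice and at 84.5, 90.3 and 103 TPM in P209L mice. Every KO mouse was below every other mouse. The mouse with the lowest Hnrnph2 among the 8-week controls, KO control 1, also stood apart in the axon guidance genes: it was the lowest of the 12 mice of 8 weeks in 56 of the 64 tested genes (87.5%, against 62.1% of all tested genes), and the median gene stood at 55.7% of the mean of the other 2 KO controls (73.4% over all tested genes). Mitochondrially encoded genes took 20.14% of its TPM, against 10.67% to 15.36% in the other 16 mice. P209L control 2 also stood apart, with a summed TPM of 6 choroid plexus markers of 1772.2, against 2.8 to 26.5 in the other mice. Markers of cortical neurons, oligodendrocytes, astrocytes, endothelium and immature neurons were present in every mouse, and values that moved by more than 1.5 times without KO control 1 or P209L control 2 are given with and without them.

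Sema7a, a membrane-anchored semaphorin, had the highest level of all 67 genes in the 6 controls of 8 weeks, at 101 ± 27.8 TPM (SD, n = 6 mice). Epha4, an Eph receptor that binds ephrins of both classes, came next at 70.6 ± 17.5 TPM, then Plxnd1, the receptor of Sema3e, at 55.0 ± 12.6 TPM, and the Eph receptor Ephb6 at 54.5 ± 12.8 TPM. The spreads of these neighbours overlapped, and their order was not tested. In these mice 4 genes were at 50 TPM or more, 31 between 10 and 50 TPM, 29 between 1 and 10 TPM and 3 under 1 TPM.

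**Figure D1:**
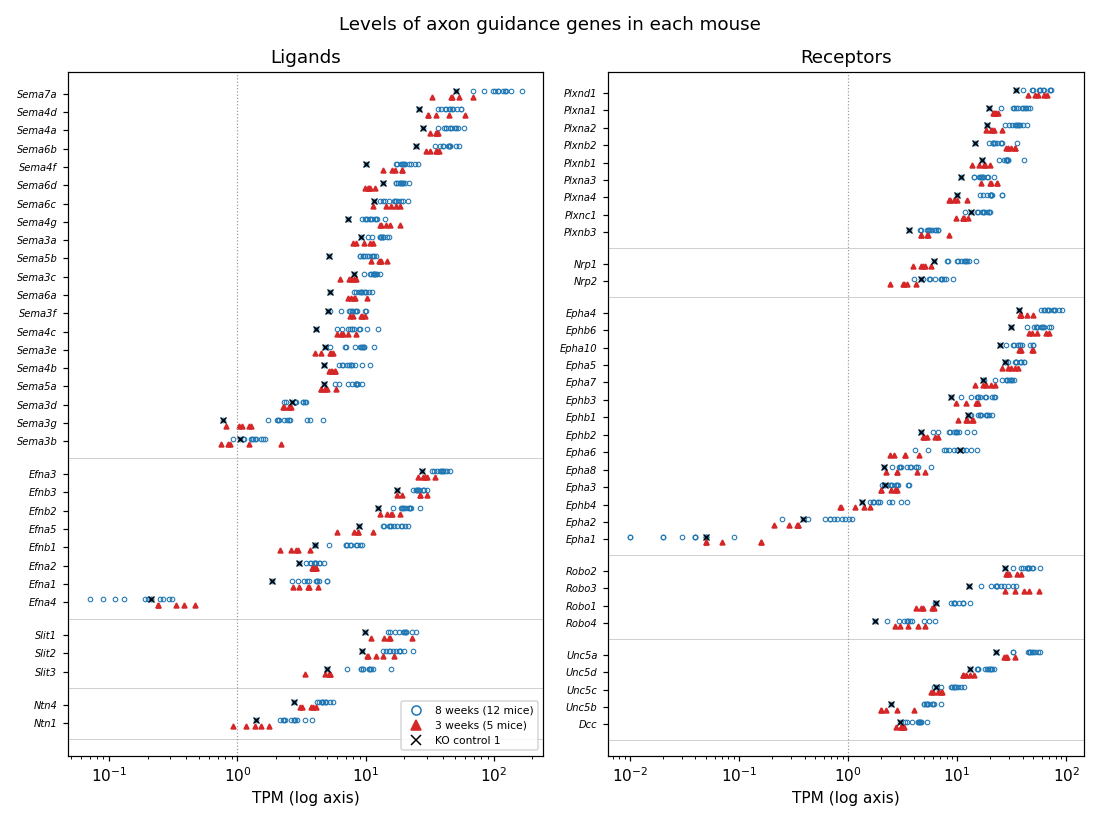
TPM of each ligand (left) and receptor (right) in each mouse on a log axis, with circles for the 12 mice of 8 weeks, triangles for the 5 mice of 3 weeks and a cross for KO control 1. Genes are grouped by family and ordered by mean TPM, and the dotted line marks 1 TPM. KO control 1 lies at the lower edge of the 8-week mice in most genes, and the 3-week mice lie below the 8-week mice in Sema6d, Efnb1, Nrp1 and Robo1.

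Within families the levels were uneven. Sema4d, a transmembrane semaphorin that binds Plxnb1, was the second semaphorin by level at 44.1 ± 9.87 TPM, whereas the secreted class 3 semaphorins ranged from Sema3b at 1.40 TPM to Sema3a at 12.7 TPM. Efna3 (37.2 ± 5.002 TPM) and Efnb3 (25.9 ± 4.34 TPM) led the ephrins. Slit1 (18.6 ± 4.56 TPM) and Slit2 (16.2 ± 3.54 TPM) led the Slits. The netrins were low, with Ntn4 at 4.40 ± 0.880 TPM and Ntn1 at 2.47 ± 0.572 TPM. Among receptors, Plxna1 followed Plxnd1 at 37.1 ± 9.12 TPM, Robo2 was at 42.0 ± 7.81 TPM and Robo3 at 23.0 ± 7.08 TPM. Unc5a was at 44.1 ± 10.6 TPM and Unc5d at 18.9 ± 2.94 TPM, whereas Dcc, the attractive netrin receptor, was at 4.11 ± 0.601 TPM. The neuropilins Nrp1 and Nrp2 were at 10.95 ± 2.47 and 5.94 ± 1.12 TPM.

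Sema7a binds the receptor Plxnc1, and both were lower at 3 weeks than at 8 weeks. The 250 bases before the start of each are shown as the upstream sequence of a ligand and its receptor. The pair was chosen after the values were seen, and a part of these bases in the age difference was not tested. The sequences are from RefSeq on GRCm38.p6, read 5′ to 3′ along the gene's strand, at chr9:57939862-57940111 on the plus strand for Sema7a and chr10:94944846-94945095 on the minus strand for Plxnc1. Capitals mark the GC box GGGCGG or its reverse complement CCGCCC.
Sema7a: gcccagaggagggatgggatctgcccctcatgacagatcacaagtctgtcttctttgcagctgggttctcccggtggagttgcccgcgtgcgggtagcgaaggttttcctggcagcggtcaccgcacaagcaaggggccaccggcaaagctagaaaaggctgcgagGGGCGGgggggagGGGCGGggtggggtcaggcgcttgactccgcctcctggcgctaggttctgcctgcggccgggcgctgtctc
Plxnc1: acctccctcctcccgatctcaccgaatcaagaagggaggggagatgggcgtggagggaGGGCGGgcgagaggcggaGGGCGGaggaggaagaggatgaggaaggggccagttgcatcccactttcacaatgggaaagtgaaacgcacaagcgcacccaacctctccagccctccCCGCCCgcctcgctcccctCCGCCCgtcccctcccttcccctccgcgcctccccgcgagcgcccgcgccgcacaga
Sema7a held 2 such boxes and Plxnc1 held 4. Over both strands, GGGCGG was in 52 of the 73 windows (71.2%) of the 57 genes with a RefSeq entry, and in 32.7% of all 32851 windows of the same length. The TATA box TATAAA was in 2.7% of the windows of these genes and in 12.4% of all windows, and CCAAT in 27.4% and 33.8%. All windows were used without a filter on gene type or on expression in cortex, so the sets compared are not matched. None of these motifs contains another, and a match is a description of the sequence only.

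The comparison of ages had the largest differences. Of the 64 genes, 20 were lower at 3 weeks both in the P209L controls against the controls of the other 2 lines and in P209L mice against KO and R206W mice, and 0 were higher in both. These comparisons share no mice, but both take their standard errors from the same fit to all mice. Their calls are therefore not independent. The comparison of mutants also sets the P209L allele against the KO and R206W alleles. A gene that passed between mutants only may thus differ by age, line or allele. The share of 31.2% is to be read against 28% of all tested genes that passed in both with the same direction (20.2% lower and 7.88% higher in both). By comparison, 26 genes passed between the controls (40.6%, against 36.1% of all genes; 3 higher and 23 lower, where 11.3% and 24.8% of all genes were), and 29 between the mutants (45.3%, against 45.9%; all 29 lower, where 13.9% of all genes were higher and 32.1% lower). The median log2 difference of the 64 genes was -0.377 between controls and -0.393 between mutants, and that of all tested genes -0.1207 and -0.1552. Rescaling by median-of-ratios size factors, which brings the median of all genes to 0 and 0.0036, gave medians of -0.254 and -0.215 for the 64 genes, with 6 higher and 24 lower between controls (46.9%, against 44.1% of all genes) and 7 higher and 25 lower between mutants (32 of 64, against 51.4% of all genes). Quantile normalization gave 8 higher and 20 lower (43.8%, against 44.5%), and 7 higher and 24 lower (48.4%, against 51.0%). The count of 0 higher in both therefore depended on the scaling. Under both rescalings Plxna3, Plxnb2, Robo3, Sema4g and Sema5b passed as higher in both comparisons, as did Sema3f under quantile normalization. These were named after their values were seen. All 5 mice of 3 weeks lay below all 12 of 8 weeks in 4 genes, Sema6d, Efnb1, Nrp1 and Robo1 (6.2%, where 16.7% of all genes had no overlap in either direction). Within controls 16 genes (25.0%, against 38.2% of all genes) and within mutants 25 genes (39.1%, against 40.2%) had ages that did not overlap.

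Marker levels moved with age as well. The summed TPM of 11 cortical neuron markers was 2224.7 to 2720.7 at 3 weeks and 2665.8 to 4684.0 at 8 weeks, and all 11 were lower between controls (5 past the adjusted threshold). Between mutants, Fezf2 of this list went the other way by mean. It was at 22.95, 23.87 and 25.53 TPM in P209L mice, 17.73, 15.31 and 19.51 TPM in KO mice and 20.48, 22.7 and 27.33 TPM in R206W mice. All 8 astrocyte markers were lower in both comparisons on the log2(TPM + 1) scale (4 past the threshold between controls and 5 between mutants). Gfap of this list was at 34.63 and 102.36 TPM in P209L controls, on either side of the 55.38 to 72.83 TPM of the 8-week controls. The 8 immature neuron markers summed to 462.9 to 822.7 TPM at 3 weeks and 292.4 to 448.5 TPM at 8 weeks, but the members were not uniform. Marcksl1 was at 157.41 and 149.22 TPM in P209L controls, against 48.05 to 76.9 TPM in 8-week controls. Sox11 (2.99 and 2.85 TPM, against 2.85 to 3.54) and Sox4 (6.52 and 6.83 TPM, against 4.57 to 7.49) were within the 8-week control range. Of 12 endothelial markers, 2 passed as higher and 2 as lower between controls, and 8 passed as lower between mutants. Of 9 mural markers, 1 passed as lower between controls and 8 between mutants. Of 14 oligodendrocyte markers, 8 passed as higher and 1 as lower between controls, whereas between mutants 5 passed as lower and 0 as higher. In bulk tissue, fewer cells of a type and less RNA per cell cannot be told apart, and the part of these markers in the results was not tested.

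Among the semaphorins, 5 were lower at 3 weeks in both comparisons: Sema6d, Sema3c, Sema3e, Sema5a and Sema7a. Sema7a is described in full as the semaphorin with the highest level, a choice made after its age values were seen. Sema7a (chr9:57940112-57962865) was at 46.9 and 53.2 TPM in the P209L controls and at 46.2, 32.7 and 69.5 TPM in P209L mice. It was at 50.4, 107 and 136 TPM in KO controls and 103, 108 and 99.4 TPM in R206W controls, and at 84.5, 69.4 and 118 TPM in KO mice and 122, 125 and 165 TPM in R206W mice. Both 3-week controls were below every 8-week control except KO control 1, which lay between them, and the highest P209L mouse was just above the lowest KO mouse. The log2 difference was -0.94 ± 0.31 (SE; adjusted p = 0.0275, limma) between controls and -1.198 ± 0.27 (adjusted p = 0.00222) between mutants. Between controls it lost its call without either of the 2 P209L controls, with adjusted p of 0.172 and 0.106.

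Sema6d, a transmembrane semaphorin that binds Plxna1, separated the ages more tightly. It was at 10.4 and 10.7 TPM in P209L controls and 9.88, 11.8 and 10.9 TPM in P209L mice, and at 13.8 to 22.0 TPM in the 12 mice of 8 weeks (median 18.8 TPM). No mouse of 3 weeks reached the lowest of 8 weeks, which was KO control 1. The log2 difference was -0.71 ± 0.13 (adjusted p = 0.00071, limma) between controls and -0.77 ± 0.11 (adjusted p = 8.72e-05) between mutants. The secreted Sema3c (log2 difference -0.58 ± 0.14 and -0.47 ± 0.12), Sema3e (-0.82 ± 0.19 and -0.49 ± 0.16) and the transmembrane Sema5a (-0.59 ± 0.17 and -0.50 ± 0.15) were lower by similar amounts. Sema4g was the semaphorin that passed as higher at 3 weeks, between controls only (0.55 ± 0.17, adjusted p = 0.0186, limma); between mutants its value was 0.32 ± 0.14 (adjusted p = 0.0809) and the difference between these comparisons was not tested.

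**Figure D2:**
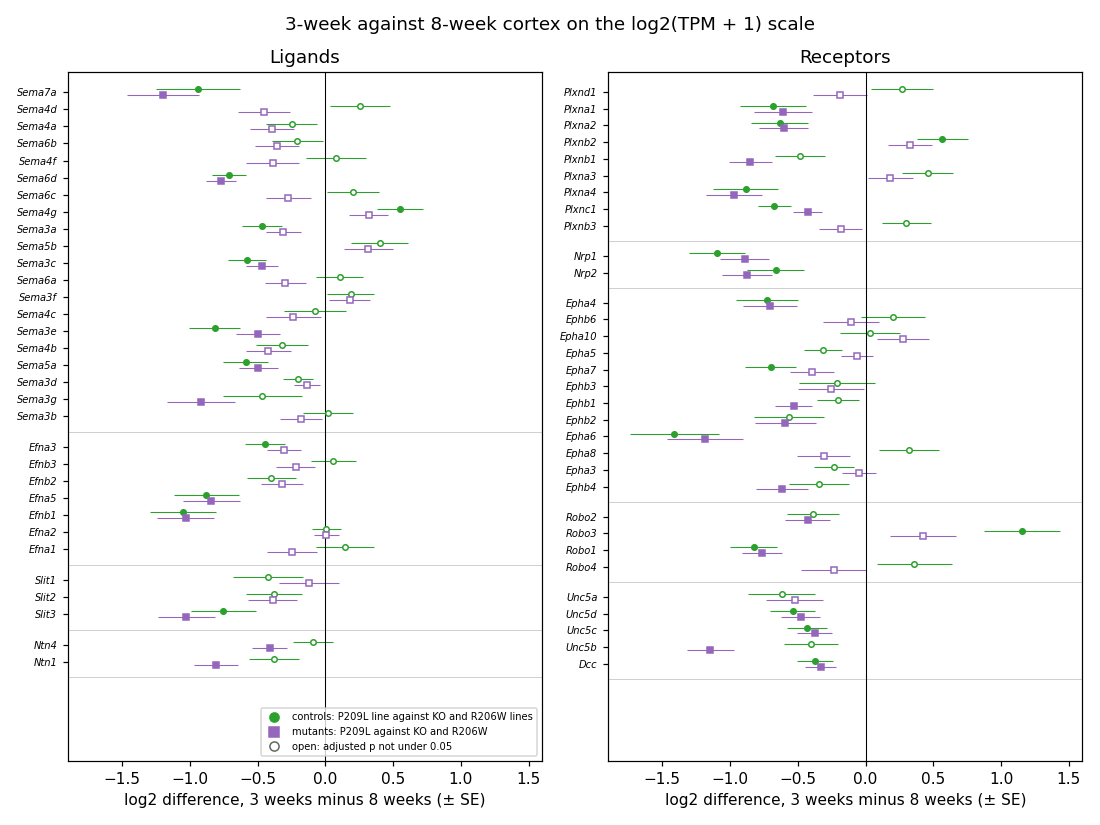
Log2 difference of 3 weeks minus 8 weeks for each tested ligand (left) and receptor (right), with circles for controls and squares for mutants, filled where the adjusted p was under 0.05, and bars for the SE. Most points lie to the left of 0; Epha6 has the lowest value between controls (-1.41) and Robo3 the highest (1.15).

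Of the ephrins, Efnb1 and Efna5 were lower at 3 weeks in both comparisons. Efnb1 (chrX:99136130-99148991), a transmembrane ephrin that binds EphB receptors, was at 2.85 and 2.95 TPM in P209L controls and 3.68, 2.64 and 2.16 TPM in P209L mice. In KO controls it was at 4.05, 7.72 and 7.60 TPM, in R206W controls at 8.37, 8.55 and 7.13 TPM, in KO mice at 4.05, 5.18 and 9.03 TPM and in R206W mice at 7.02, 7.01 and 9.39 TPM. The ages did not overlap, and the level at 3 weeks was 40.1% of that at 8 weeks in controls and 40.7% in mutants (log2 difference -1.05 ± 0.24, adjusted p = 0.00402, and -1.03 ± 0.21, adjusted p = 0.00122, limma). Efna5, a lipid-anchored ephrin that binds EphA receptors, was at 50.1% and 54.0% (-0.88 ± 0.24 and -0.84 ± 0.21). Efna2, which also binds EphA receptors, had equal means at both ages, 3.97 TPM in controls at either age.

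Slit3 was the Slit that passed in both comparisons, at 53.4% of its 8-week level in controls and 43.7% in mutants (-0.75 ± 0.24, adjusted p = 0.0246, and -1.03 ± 0.21, adjusted p = 0.0012, limma). Slit1 and Slit2 did not pass in either, with log2 differences of -0.42 and -0.38 between controls. The netrins passed between mutants only, Ntn1 at -0.80 ± 0.16 (adjusted p = 0.00112, limma) and Ntn4 at -0.41 ± 0.13 (adjusted p = 0.0163), and their values between controls were -0.38 ± 0.19 and -0.09 ± 0.15.

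Among the receptors, 4 of 9 plexins were lower at 3 weeks in both comparisons. Plxnc1 (chr10:94790866-94944835), the receptor of Sema7a, was at 11.3 and 9.70 TPM in P209L controls and 11.6, 12.5 and 11.4 TPM in P209L mice. It was at 13.5, 16.9 and 17.4 TPM in KO controls, 19.8, 19.5 and 17.5 TPM in R206W controls, 11.9, 15.5 and 15.3 TPM in KO mice and 18.7, 17.6 and 19.8 TPM in R206W mice. KO mouse 1 fell within the range of the P209L mice, and all other 8-week mice were above all 3-week mice. The log2 difference was -0.67 ± 0.12 (adjusted p = 0.000802, limma) between controls and -0.43 ± 0.11 (adjusted p = 0.00419) between mutants.

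The class A plexins, which pair with neuropilins to bind class 3 semaphorins, included the other 3. Plxna4 was at 49.8% and 48.7% of its 8-week level in controls and mutants (-0.89 ± 0.24 and -0.97 ± 0.21), Plxna2 at 61.7% and 64.6% (-0.63 ± 0.21 and -0.60 ± 0.18), and Plxna1 at 59.3% and 63.4% (-0.68 ± 0.24, adjusted p = 0.0398, and -0.61 ± 0.21, adjusted p = 0.028, limma). Plxna1 lost its call in 10 of the 28 alternative settings between controls and in 6 between mutants. Plxnb2 passed as higher at 3 weeks between controls (0.57 ± 0.19, adjusted p = 0.0304, limma), with 0.33 ± 0.17 (adjusted p = 0.116) between mutants.

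Both neuropilins were lower at 3 weeks in both comparisons. Nrp1 (chr8:128358604-128503363), a co-receptor for Sema3a and for vascular growth factors, was at 3.91 and 5.07 TPM in P209L controls and 4.86, 5.78 and 4.65 TPM in P209L mice. It was at 6.10, 12.3 and 12.8 TPM in KO controls and 11.96, 11.6 and 10.9 TPM in R206W controls, and at 8.07, 8.18 and 10.02 TPM in KO mice and 10.1, 11.7 and 14.9 TPM in R206W mice. The ages did not overlap, with KO control 1 the lowest mouse of 8 weeks. The log2 difference was -1.10 ± 0.21 (adjusted p = 0.00112, limma) between controls, -1.25 ± 0.14 without KO control 1, and -0.89 ± 0.18 (adjusted p = 0.00113) between mutants. Nrp2, the co-receptor of Sema3f, was at 56.2% and 47.3% of its 8-week level.

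Epha6 had the lowest log2 difference of the 64 genes between controls. It was at 3.31 and 2.42 TPM in P209L controls and 3.36, 4.46 and 2.65 TPM in P209L mice, and at 10.7, 8.38 and 5.37 TPM in KO controls, 13.5, 12.1 and 7.60 TPM in R206W controls, 7.97, 15.2 and 4.15 TPM in KO mice and 11.3, 9.35 and 9.96 TPM in R206W mice. KO mouse 3 was within the range of the P209L mice, and the spread among 8-week mice was wide. The means at 3 weeks were 29.9% of those at 8 weeks in controls and 36.2% in mutants (-1.41 ± 0.33, adjusted p = 0.00398, and -1.18 ± 0.28, adjusted p = 0.00339, limma). Epha4, the other Eph receptor that passed in both, was at 58.0% and 60.7%. Of the other 10 tested Eph receptors, Epha7 passed between controls only and Ephb1, Ephb2 and Ephb4 between mutants only, all as lower at 3 weeks.

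The Robos differed in direction between controls of the 2 ages. Robo1 (chr16:72308306-73046095), a Slit receptor, was at 4.84 and 4.67 TPM in P209L controls and 4.22, 6.17 and 5.94 TPM in P209L mice, below the 6.26 to 13.1 TPM of the 12 mice of 8 weeks. Its log2 difference was -0.82 ± 0.17 (adjusted p = 0.00223, limma) between controls and -0.77 ± 0.15 (adjusted p = 0.000929) between mutants. Robo3 (chr9:37415669-37433246), a divergent Robo that controls midline crossing, was at 45.3 and 56.2 TPM in P209L controls and 33.8, 27.7 and 41.2 TPM in P209L mice. It was at 12.9 to 35.0 TPM in the 12 mice of 8 weeks, with a median of 23.4 TPM. The P209L controls were above all of these and the P209L mice were within or above their range. The log2 difference was 1.15 ± 0.28 (adjusted p = 0.00537, limma) between controls, 1.00 ± 0.38 (adjusted p = 0.0826) without P209L control 2, and 0.42 ± 0.24 (adjusted p = 0.165) between mutants. Robo3, Sema4g and Plxnb2 are named as the genes that passed as higher between controls, and were chosen after their values were seen. Without either P209L control, Sema4g and Plxnb2 no longer passed. All 3 passed as higher between mutants too under median-of-ratios and quantile scaling.

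In the netrin receptor group, Unc5d, Unc5c and Dcc were lower at 3 weeks in both comparisons. Unc5d and Unc5c, repulsive netrin receptors, were at 66.5% and 70.9% of their 8-week level in controls and 69.9% and 73.1% in mutants, and Dcc at 71.0% and 73.9%. The adjusted p values of Unc5c were 0.0332 and 0.0256 and those of Dcc 0.0385 and 0.0289 (limma). Both genes lost their call in 9 alternative settings between controls, and between mutants Unc5c did so in 5 and Dcc in 8. Unc5b, a repulsive receptor known for its part in blood vessels, passed between mutants only, at 35.6% (-1.15 ± 0.17, adjusted p = 0.000128, limma), with -0.40 ± 0.20 (adjusted p = 0.122) between controls.

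**Figure D3:**
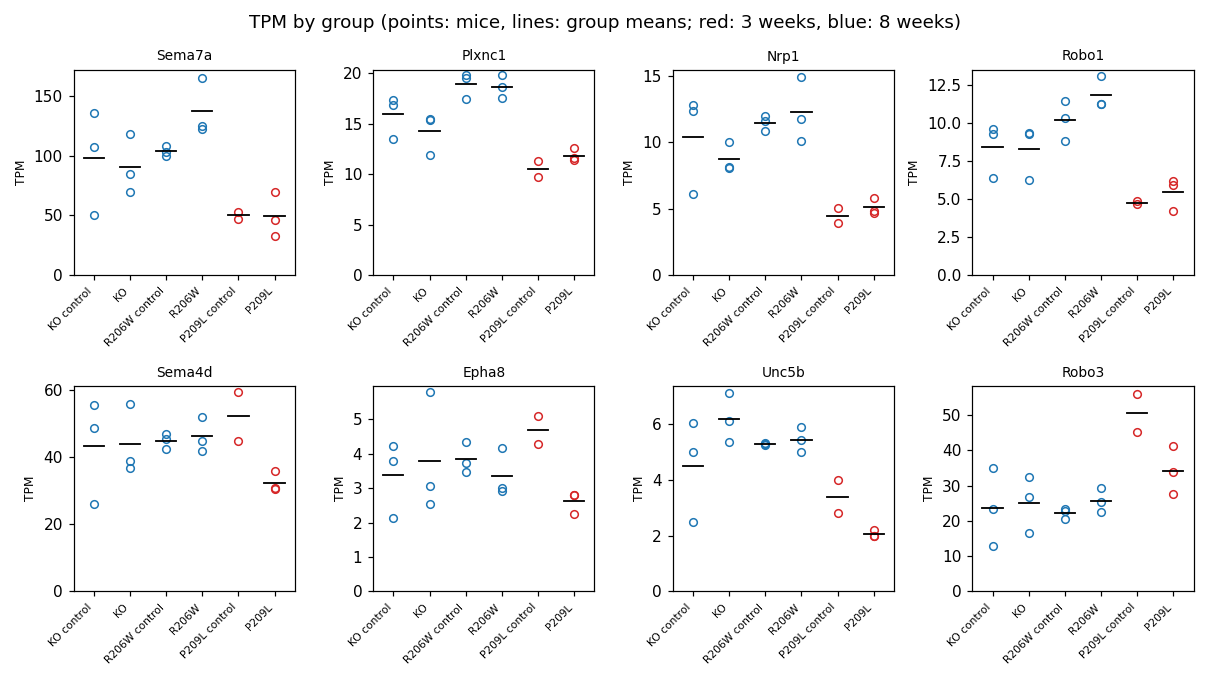
TPM of 8 genes in each mouse by group, with a line at the group mean, blue for 8 weeks and red for 3 weeks. Sema7a, Plxnc1, Nrp1 and Robo1 are lower in both 3-week groups, whereas Sema4d, Epha8, Unc5b and Robo3 are lower in P209L mice than in their 2 controls, at unadjusted p under 0.05 for the first 3 of these.

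In the mutant comparisons, which ask how loss of hnRNPH2 or a substitution in it alters expression, 0 of the 64 genes passed the adjusted threshold in KO, R206W or P209L mice with limma. This is to be read against 0.00615%, 0.0369% and 0.0984% of all tested genes. At an unadjusted p under 0.05 there were 2 genes in KO, both higher (3.1%, against 4.08% of all genes and 3.46% higher), 0 in R206W (2.19%) and 3 in P209L, all lower (4.7%, against 7.46% of all genes and 2.9% lower). These unadjusted counts depended on the fit. Fitted on the compared groups alone, the KO count was 0 (2.05% of all genes). The R206W count was then 5, with 1 gene reduced (7.81%, against 9.59% of all genes). For P209L it was 9, of which 3 were raised and 6 reduced (14.1%, against 7.64% of all genes). The median log2 difference of the 64 genes was 0.041 in KO, 0.079 in R206W and 0.000 in P209L mice, and that of all tested genes 0.0636, 0.0096 and 0.0163. The KO median turned to -0.030 under median-of-ratios scaling and -0.018 under quantile normalization. With 2 or 3 mice a group, a p that misses the threshold does not show that levels were equal.

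In KO mice the unadjusted genes were Plxnb1, the receptor of Sema4d, and Unc5b. Plxnb1 (chr9:109095389-109119917) was at 29.5, 28.2 and 40.9 TPM in KO mice and 16.8, 26.7 and 28.8 TPM in KO controls, so that the groups overlapped at their edges. Its log2 difference was 0.45 ± 0.18 (adjusted p = 0.999, limma), and 0.22 ± 0.16 without KO control 1. Unc5b was at 6.12, 5.36 and 7.11 TPM against 2.47, 5.01 and 6.02 TPM (0.44 ± 0.20, and 0.14 ± 0.13 without KO control 1). KO control 1 was the lowest mouse for both. Plxnb2 (0.34 ± 0.19), Sema4g (0.29 ± 0.17) and Sema6a (0.29 ± 0.17) came next by p, and were at 0.14, 0.11 and 0.04 without KO control 1. No gene of the 64 had groups that did not overlap (0, where 6.25% of all genes did).

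Without KO control 1 the direction in KO mice turned. The median log2 difference of the 64 genes was then -0.179, with 51 genes lower and 13 higher, and that of all tested genes -0.0591. The adjusted count stayed at 0, and 11 genes had an unadjusted p under 0.05, all lower in KO mice (17.2%, against 10.5% of all genes): Efna5, Epha4, Ephb2, Nrp1, Plxna1, Plxna2, Plxna4, Plxnc1, Sema3e, Sema4a and Sema5a. These were named after their values were seen, and neither Plxnb1 nor Unc5b was among them. Cortical neuron markers summed to 3693.3 to 3983.4 TPM in the KO mice, 4359.5 and 4684.0 TPM in KO controls 2 and 3, and 2665.8 TPM in KO control 1. With all controls in, 10 of 10 leptomeningeal fibroblast, 13 of 14 oligodendrocyte, 7 of 9 mural and 7 of 8 astrocyte markers were higher in KO mice by sign. All 12 endothelial markers were higher too, with summed TPM of 370.9 to 438.9 against 312.3 to 386.4 in the controls, 0 of them with an unadjusted p under 0.05, and the part of these markers in the results was not tested.

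In R206W mice, 9 genes had groups that did not overlap (14.1%, where 16.2% of all genes did), 8 of them higher in R206W. Ephb1, a receptor for B-class ephrins, was at 18.7, 20.8 and 18.6 TPM in R206W mice and 13.1, 16.4 and 16.3 TPM in their controls (0.33 ± 0.16, adjusted p = 1, limma). Sema7a was at 122, 125 and 165 TPM against 103, 108 and 99.4 TPM (0.39 ± 0.31). Both genes were higher in every R206W mouse than in every control, but neither had an unadjusted p under 0.05. The spread of this fit comes from all 6 groups. For Sema7a the SD was 43.5 TPM in KO controls and 4.49 TPM in R206W controls. Fitted on the R206W groups alone, the 5 genes with an unadjusted p under 0.05 were Efnb3, Ephb1, Sema4a, Sema7a and Unc5c (7.81%, against 9.59% of all genes). None of the 64 passed after adjustment in that fit. Sema4c (0.37 ± 0.23), Efnb3 (-0.23 ± 0.17) and Unc5c (0.18 ± 0.15) were the other 3 of the 5 genes with the smallest p.

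In P209L mice, 21 genes had groups that did not overlap (32.8%, where 24.9% of all genes did), 9 higher and 12 lower. The 3 genes with an unadjusted p under 0.05 were all lower. Sema4d (chr13:51685529-51793747) was at 30.7, 35.8 and 30.4 TPM in P209L mice and 44.7 and 59.5 TPM in their controls (-0.66 ± 0.25, adjusted p = 0.53, limma). Epha8, a receptor for A-class ephrins, was at 2.80, 2.80 and 2.24 TPM against 4.29 and 5.11 TPM (-0.66 ± 0.25, adjusted p = 0.538), and Unc5b at 2.00, 2.21 and 2.00 TPM against 2.80 and 3.99 TPM (-0.51 ± 0.22, adjusted p = 0.623). Every P209L mouse was below both controls in all 3 genes. Plxnb3, a plexin made by oligodendrocytes, was at 5.32, 4.70 and 4.68 TPM against 5.37 and 8.40 TPM (-0.39 ± 0.20), and Robo3 was at -0.56 ± 0.31.

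Oligodendrocyte markers moved with these values: all 14 were lower in P209L mice, 13 of them with an unadjusted p under 0.05 and 0 past the adjusted threshold, and their summed TPM was 2670.7 to 3788.0 in P209L mice against 4427.9 and 6602.5 in the controls, the higher of these in P209L control 2. Sema4d is known to be made by oligodendrocytes as well. All 12 endothelial, 9 mural and 10 leptomeningeal fibroblast markers were lower too on the log2(TPM + 1) scale. The endothelial sums were 290.6 to 336.1 TPM against 340.3 and 380.7 TPM. The fibroblast marker Dcn overlapped, at 19.32, 32.91 and 13.38 TPM in P209L mice against 23.44 and 19.72 TPM in their controls. The part of all these markers in the results was not tested. Without P209L control 2, 0 genes had an unadjusted p under 0.05 (2.98% of all genes), and the log2 differences were -0.46 for Sema4d, -0.55 for Epha8, -0.31 for Unc5b and -0.11 for Plxnb3.

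**Figure D4:**
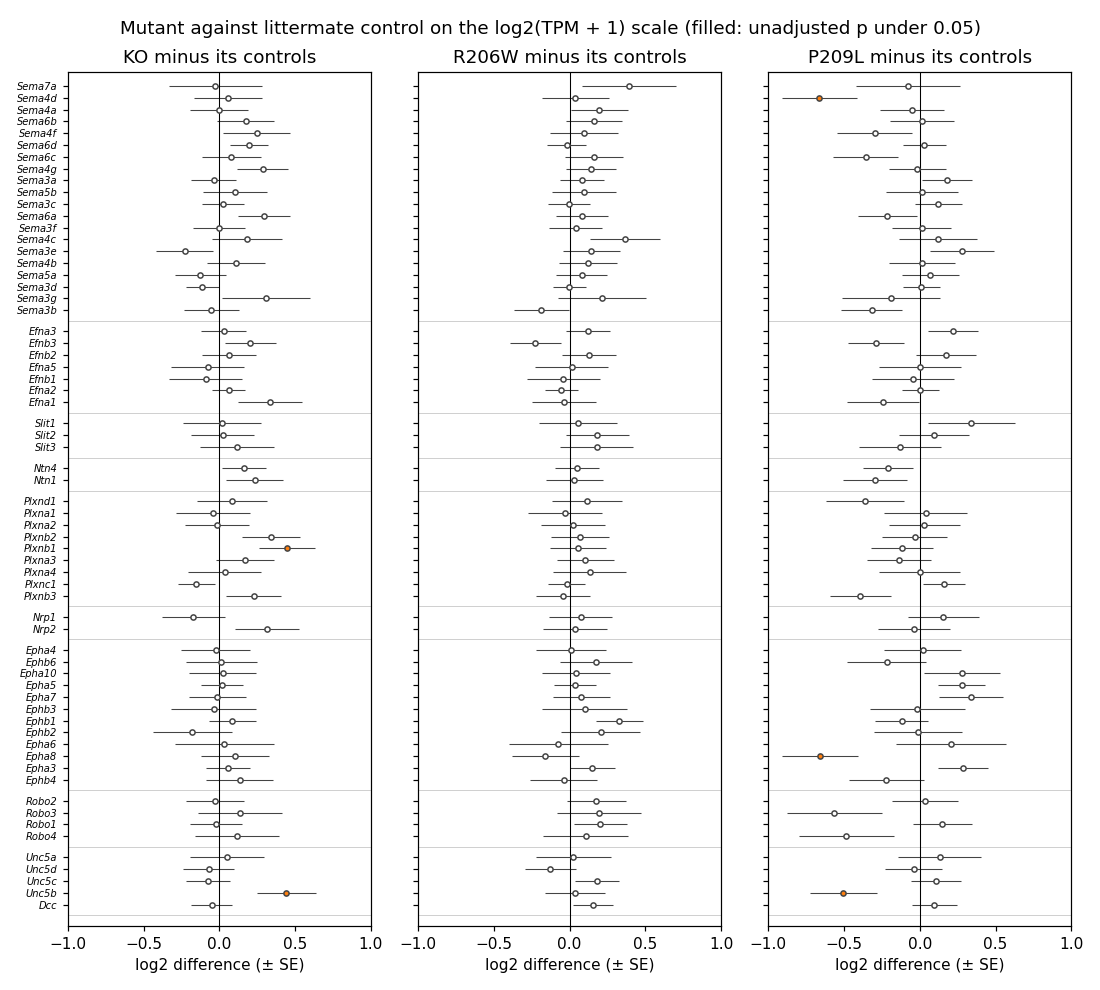
Log2 difference of each mutant group minus its own controls for the 64 tested genes, with bars for the SE and filled points where the unadjusted p was under 0.05. There are 2 filled points in KO (Plxnb1, Unc5b), 0 in R206W and 3 in P209L (Sema4d, Epha8, Unc5b), and 0 genes passed after adjustment.

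The differences between the effects were tested in the same model, with 0 of the 64 genes past the adjusted threshold in each (0.0307% of all genes for KO against R206W, 0.0492% for KO against P209L and 0 for R206W against P209L). At an unadjusted p under 0.05 there were 0, 4 and 0 genes (2.29%, 7.98% and 3.98% of all genes), and in all 4 the KO effect was above the P209L effect (4.69% of all genes). The values for Unc5b, 0.44 in KO and -0.51 in P209L mice, differed by 0.95 ± 0.30 (adjusted p = 0.42, limma), and those for Plxnb3 by 0.62 ± 0.27 (adjusted p = 0.598), or 0.34 without P209L control 2. KO and R206W effects were furthest apart by p in Efnb3 (0.43 ± 0.24) and Plxnb1 (0.39 ± 0.26), at 0.26 and 0.16 without KO control 1, and R206W and P209L effects in Sema4d (0.70 ± 0.33) and Ephb1 (0.45 ± 0.23). Between the controls of the R206W and KO lines, both at 8 weeks, 0 genes passed (0 of all genes), 1 had an unadjusted p under 0.05 (3.12% of all genes, 2.82% higher), the ephrin Efna2 (0.24 ± 0.11, and 0.15 without KO control 1). The median of the 64 genes was 0.18 and that of all tested genes 0.1293. Without KO control 1, the lowest KO control in 63 of the 64 genes, the median of all tested genes was -0.0014. That of the 64 genes was not computed without this mouse, so 0.18 is not to be read as a difference between lines.

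**Figure D5:**
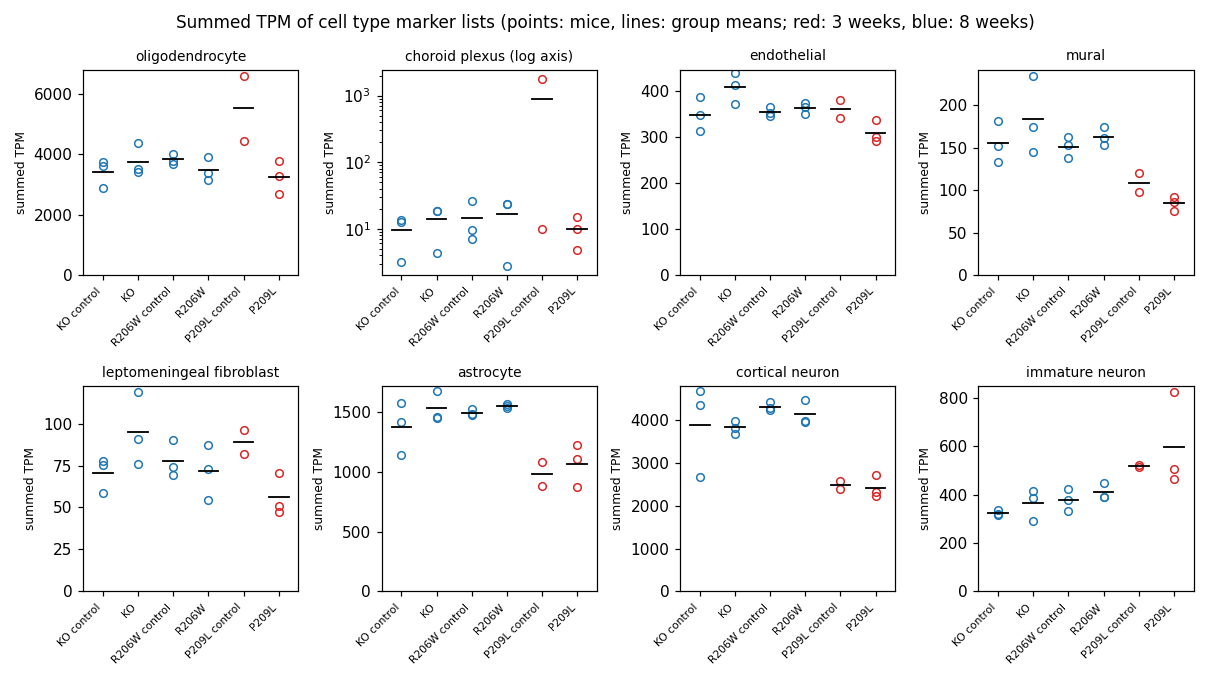
Summed TPM of 8 marker lists in each mouse by group, with a line at the group mean, blue for 8 weeks and red for 3 weeks; the choroid plexus panel has a log axis. P209L control 2 holds the highest oligodendrocyte (6602.5) and choroid plexus (1772.2) sums, and cortical neuron sums are lower in the 3-week groups.

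Genes for the proteins that carry the signal inside the cell were tested in the same way. Of 44 mediators, among them collapsin response mediators, Abl kinases and actin regulators, 20 were lower and 3 higher at 3 weeks between controls (24.8% and 11.3% of all genes), and 25 lower and 2 higher between mutants (32.1% and 13.9% of all genes), with medians of -0.397 and -0.472. Enah, an actin regulator of the growth cone, was lower by log2 differences of -1.10 ± 0.11 (adjusted p = 1.16e-05, limma) and -0.90 ± 0.09. The kinase Abl2, which acts downstream of Robo, was at -1.12 ± 0.17 and -0.92 ± 0.15. In the mutant comparisons 0 of the 44 passed after adjustment; those with small p included Nck1 (-0.25 ± 0.13) and Abl1 (0.22 ± 0.16, and 0.05 without KO control 1) in KO, Cdk5 (0.18 ± 0.12) and Enah (-0.14 ± 0.11) in R206W, and Rasa1 (0.30 ± 0.11) in P209L mice.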

How the data were processed

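The authors deposited TPM values for 17 mice in 1 table by gene symbol. Per the labels, total RNA from frozen cortex was made into stranded total RNA libraries, and the submitters' processing notes name Trim Galore, STAR 2.7.1a, GATK 4.0.4.0, RSEM and the mm10 build, with no roles; the annotation release and the strand setting are not given in the sources used here. Each column added up to 1000000 TPM within rounding, so depth is unknown and cannot be recovered, and a few abundant transcripts can shift all others. The labels number the samples of a group as replicates without naming animals or batches. Each is taken here as 1 mouse, and the p-values measure only the spread between these samples, which may in part be technical.

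The 120 rows that repeat a symbol were summed, leaving 55453 symbols, and the 16265 genes with a mean of at least 1 TPM were tested on log2(TPM + 1). Group means were fitted to all 17 mice with limma 3.58.1 in R 4.3.3 (eBayes with trend=TRUE, two-sided), since 2 or 3 mice a group leave few degrees of freedom, and Benjamini-Hochberg adjustment used a threshold of 0.05 in each comparison. Age was tested as the P209L groups against the mean of the KO and R206W groups. Coordinates are from GENCODE M21 (GRCm38), matched by symbol, and all 67 genes matched. The fit was tested on simulated data.

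Genes named were the 2 of each family with the highest mean TPM, the 5 with the smallest p in each mutant comparison, those past the threshold in both age comparisons (up to 4 per family; Sema7a, Robo3, Sema4g and Plxnb2 were added after their age values were seen), the 2 with the smallest p in each difference between effects, and up to 4 per pathway list. The genes and lists were chosen with earlier results of these data known. Alternatives were other pseudocounts (0.1, 0.5), filters (none, 5 TPM), scalings, removal of mitochondrially encoded genes, fits on the compared groups alone, a replicate block, robust=TRUE, sample weights from arrayWeights and leaving out each mouse. Some items of the pathway lists are not reported here.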

Additional observations from a re-analysis of the deposited data

How the results depend on the processing

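The results were recomputed under 28 alternatives, 17 of which left out 1 mouse each. The counts of genes past the adjusted threshold stayed within 1.5 times their main value in 244 cases and moved further in 8. A count of 0 that stayed at 0 is among the 244. The main count was 0 in every comparison except those of ages, so the total says little about the age counts. Between controls of the 2 ages the count of 26 became 16 with no filter, 13 in a fit on those groups alone and 41 with sample weights from arrayWeights. Leaving out 1 mouse gave 5 to 39 genes: 5 without P209L control 2, 11 without P209L control 1 and 39 without KO control 1, while the share of all tested genes went from 36.1% to 16.7%, 18.4% and 50.3%. Between mutants the count of 29 ranged from 19 (without P209L mouse 1) to 43 (without KO control 1). Leaving out 1 P209L control leaves a lone mouse, which is assumed to vary like the other groups. In KO mice the count of 0 became 12 with sample weights, all 12 lower (KO control 1 had the lowest weight, 0.0819). The difference between KO and P209L effects gave 1 gene with these weights, and the cause was not tested. The leave-one-out range was 0 to 0 in each mutant comparison, difference of effects and control comparison, with 0 to 11 genes at an unadjusted p under 0.05 in KO, 0 to 1 in R206W and 0 to 6 in P209L mice, and 0 to 9, 1 to 14 and 0 to 5 in the differences of KO and R206W, KO and P209L, and R206W and P209L effects. The guidance cue Rgma reversed in KO mice, from 0.18 to -0.1408 with sample weights and -0.03841 without KO control 1; leaving out 1 mouse gave -0.03841 to 0.319. Of the 20 genes lower at 3 weeks in both age comparisons, 18 remained under median-of-ratios scaling, 17 under quantile normalization, 11 with no filter, 10 in fits on the compared groups alone and 5 without P209L control 2.

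Replicate numbers recur across groups. Deviations of same-numbered mutant and control mice correlated at 0.117, -0.058 and 0.331 in the KO line, -0.028, -0.03 and -0.113 in the R206W line and 0.081 and 0.003 in the P209L line. Differently numbered mice correlated at -0.299 to 0.265, -0.075 to 0.102 and -0.085 to 0.085 in these lines, and the block correlation was 0.189. With 2 or 3 mice a group, such values cannot show whether the numbers pair the mice. With a replicate block the counts were 27 between controls of the 2 ages, 31 between mutants and 0 in the mutant comparisons, the differences of effects and the control comparison.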

Other observations

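Guidance cues and receptors outside the families above also differed with age. Of 15 such genes 14 were tested, and 7 were lower at 3 weeks between controls (where 24.8% of all genes were called lower) and 9 between mutants (32.1% of all genes), with 0 higher in either and medians of -0.390 and -0.391. Flrt1, a transmembrane partner of Unc5 receptors, had log2 differences of -1.07 ± 0.19 (adjusted p = 0.00083, limma) and -1.10 ± 0.17. Rgma, a repulsive cue, was at -0.69 ± 0.18 and -0.85 ± 0.15, and between controls its receptor Neo1 was at -0.67 ± 0.19. Chl1, a cell adhesion molecule of the L1 family, was at -0.65 ± 0.16 between controls. Between mutants, Ntn5 was at -1.49 ± 0.23 and Cntn2, an axonal adhesion molecule also made by oligodendrocytes, at -1.08 ± 0.21. In the mutant comparisons 0 of the 14 passed after adjustment, and the smallest p were those of Ntn3 (-0.49 ± 0.15, adjusted p = 0.325, limma) and Ntn5 (-0.86 ± 0.30, adjusted p = 0.461) in P209L, Ntn3 (0.19 ± 0.13) and Rgma (0.18 ± 0.18) in KO (0.07 and -0.04 without KO control 1), and Chl1 (0.20 ± 0.16) and L1cam (0.24 ± 0.21) in R206W mice.

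KO control 1 was the lowest of the 3 KO controls in 63 of the 64 tested ligands and receptors, and in 76.2% of all tested genes. R206W mouse 3 was the highest of the 12 mice of 8 weeks in 26 of the 64 genes and KO mouse 3 in 17.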
